A study of Mus musculus with 4 samples.

Results

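The genes of the major histocompatibility complex (MHC) and of antigen presentation were followed in intestinal tumours of 2 sizes. The members were the probes whose symbol begins with H2-, the mouse MHC prefix, together with those of 15 named genes that supply, load or regulate MHC molecules. A further gene of the rule, Nlrc5, was the symbol of no probe. The members were 95 of the 45281 probes of the array, and they carried 55 of its 30869 gene symbols. Tumours came from 2 ApcMin/+ mice of the C57BL/6J strain, aged 30 weeks, which carry a truncated copy of the Wnt pathway inhibitor Apc in every cell and develop intestinal adenomas. From each animal, 3 small tumours (at most 2 mm across) went into one tube and 3 large tumours (4 to 5 mm) into another, and total RNA of each pool was hybridised to an Illumina bead array. The 4 arrays thus held a small and a large pool of mouse 1 and a small and a large pool of mouse 2, and no normal mucosa was analysed here. Values are background-corrected, quantile-normalized log2 intensities, and a difference is large minus small within a mouse unless stated otherwise.

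MHC class I molecules pair a heavy chain with beta-2-microglobulin and show peptides from the cytosol to CD8 T cells and natural killer cells; nearly all nucleated cells carry them. Their peptides are cut by the proteasome, whose catalytic subunits are exchanged under interferon gamma for those of the immunoproteasome, carried into the endoplasmic reticulum by the Tap1 and Tap2 transporter, and loaded with the help of tapasin. Class II molecules show peptides from endosomes to CD4 T cells; dendritic cells, macrophages and B cells carry them, and intestinal epithelial cells can be induced to by interferon gamma through the transactivator Ciita.

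Of the 95 member probes, 57 from 37 genes were detected (detection p under 0.05) on at least 2 arrays and entered the test, 49 of them on all 4 arrays and 8 on 2 or 3. Large tumours had lower values than small ones in both mice for 41 of the 57, against 28.6% of all 20214 tested probes, and higher values in both mice for 1, against 29% of all. Among the 49 detected on every array, 37 were lower in both mice, a count given without a matching share of all probes. For 23 of the 49 both large pools lay below both small pools, against 19.2% of all probes detected on every array. By the mean of both mice 45 of the 57 were lower, against 50.4% of all tested probes; without the small pool of mouse 1 the count was 34 (51.6% of all), and with the small pool of mouse 2 left out instead it was 53 (47.7% of all). The median difference of the 57 was -0.59 in mouse 1 and -0.21 in mouse 2, beside 0.02 and -0.03 over all tested probes. For 25 of them both large pools lay below both small pools, against 19.3% of all, and for 1 both lay above, against 20.8%. No member passed limma (two-sided, Benjamini-Hochberg over all tested probes; adjusted p of 0.569 to 0.976), and no other probe did either, 0% of those tested. At an unadjusted limma p under 0.05 there were 10 members, 7.73% being the share of all probes in either direction; all 10 were lower, against 4.11% of all. When the mouse entered the fit as a block, 1 member passed as lower (the class I gene H2-Q2) and 0 passed as higher, where 0.257% and 0.336% of all probes did. In that fit 18 members had an unadjusted limma p under 0.05, all lower, against 5.78% of all probes lower and 5.18% higher. The members are not replicates of each other, since several share a promoter or near-identical sequence. No tested probe was found for 18 symbols: 11 non-classical class I symbols (H2-M1, H2-M10.1, H2-M10.2, H2-M10.4, H2-M10.5, H2-M10.6, H2-Q10, H2-T22, H2-T24, H2-T3 and H2-Tw3), the class II symbols H2-Ea, H2-Eb2, H2-Oa and H2-Ob, and H2-D4, Erap1 and Rfx5. In such pools, fewer cells of a type and less RNA per cell cannot be told apart.

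**Figure D1:**
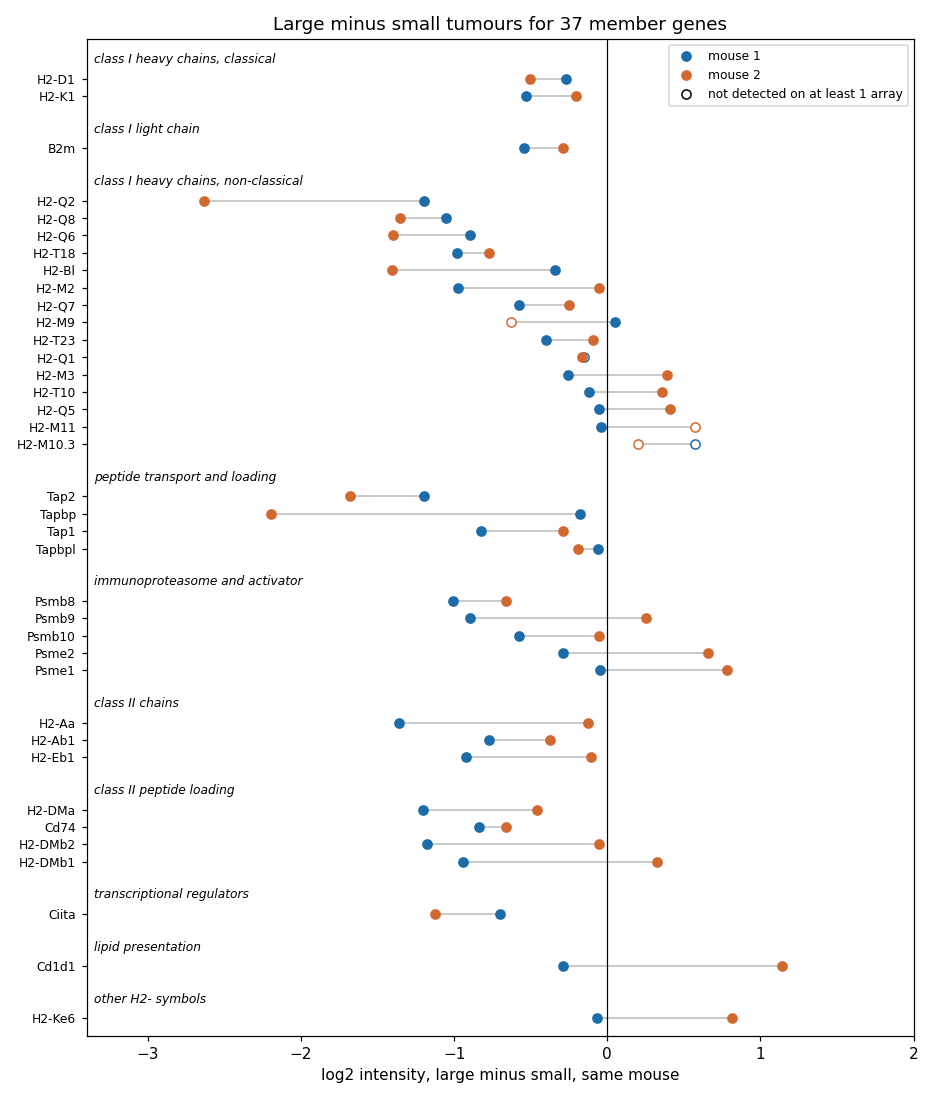
Log2 intensity of large minus small tumours (horizontal axis) for the 37 member genes with a tested probe, grouped by role; blue points are mouse 1, orange points mouse 2, and open points involve at least 1 undetected array and stand at the normalized difference, where the text gives the bound. Most genes lie left of 0 in both mice; the class II genes lie farther left in mouse 1, Tap2, Tapbp, Ciita and H2-Q2 farther left in mouse 2.

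The H2-Q2 gene, a class I heavy chain gene of the Q region, had the largest difference among the members. Its log2 intensity was 7.70 in the small and 6.50 in the large pool of mouse 1, and 9.90 and 7.26 in those of mouse 2. Both small pools were above both large pools, and the small pool of mouse 2 stood 2.20 above that of mouse 1. H2-Q2 fell by 1.91 on the log2 scale over both mice, a level 3.77-fold higher in small tumours, when limma took each mouse as a block (adjusted p = 0.0439, lower in 2 of 2 mice). Without that block the limma adjusted p was 0.603, and without the small pool of mouse 2 the difference was -0.81. The array holds many near-identical class I genes and the files give no probe sequences, so a signal cannot be assigned to 1 class I gene with certainty.

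Below are the 300-base windows around the start sites of 5 members (250 bases before to 50 after the start), shown because they represent the class I heavy chains, the class I light chain, the class II chains and the transporter genes whose values follow. They are from RefSeq, build GRCm38.p6, read 5′ to 3′ in the direction of the gene. Capitals mark a CCAAT box (CCAAT, or ATTGG on the other strand), an interferon-stimulated response element (GAAA, any 2 bases and GAAA again, on either strand), or the kappa B sequence GGGGATTCCCC of the class I enhancer A. The Y box of MHC promoters holds a CCAAT box, but matches were marked anywhere in a window without a check of position. That of Tap1 begins at -222 from the start site, and 1 of those of H2-K1 at 8. H2-Q2 is at chr17:35342057-35342356 (plus strand), H2-K1 at chr17:34000298-34000597 (minus strand), B2m at chr2:122147437-122147736 (plus strand), H2-Eb1 at chr17:34305617-34305916 (plus strand) and Tap1 at chr17:34187306-34187605 (plus strand).
H2-Q2: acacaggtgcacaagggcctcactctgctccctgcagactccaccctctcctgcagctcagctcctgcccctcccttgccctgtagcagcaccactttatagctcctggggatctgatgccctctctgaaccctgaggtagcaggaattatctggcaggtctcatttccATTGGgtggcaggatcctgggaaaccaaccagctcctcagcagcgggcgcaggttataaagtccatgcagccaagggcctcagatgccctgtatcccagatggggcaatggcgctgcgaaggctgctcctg
H2-K1: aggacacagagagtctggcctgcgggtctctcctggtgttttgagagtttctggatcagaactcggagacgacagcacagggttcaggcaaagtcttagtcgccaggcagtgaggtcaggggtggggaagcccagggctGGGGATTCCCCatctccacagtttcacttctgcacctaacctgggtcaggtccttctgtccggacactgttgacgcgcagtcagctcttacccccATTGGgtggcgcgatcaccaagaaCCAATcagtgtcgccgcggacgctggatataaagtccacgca
B2m: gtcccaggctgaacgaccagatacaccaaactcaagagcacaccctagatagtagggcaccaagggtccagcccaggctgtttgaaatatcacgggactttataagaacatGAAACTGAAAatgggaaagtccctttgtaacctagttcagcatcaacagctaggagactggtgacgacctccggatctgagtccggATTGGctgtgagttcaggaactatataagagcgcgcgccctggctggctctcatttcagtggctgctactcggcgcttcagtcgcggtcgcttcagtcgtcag
H2-Eb1: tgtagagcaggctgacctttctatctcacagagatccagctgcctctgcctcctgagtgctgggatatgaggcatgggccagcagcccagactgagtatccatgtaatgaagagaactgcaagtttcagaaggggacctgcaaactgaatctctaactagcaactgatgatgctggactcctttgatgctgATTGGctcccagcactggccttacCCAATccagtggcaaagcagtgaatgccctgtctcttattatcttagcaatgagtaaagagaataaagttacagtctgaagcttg
Tap1: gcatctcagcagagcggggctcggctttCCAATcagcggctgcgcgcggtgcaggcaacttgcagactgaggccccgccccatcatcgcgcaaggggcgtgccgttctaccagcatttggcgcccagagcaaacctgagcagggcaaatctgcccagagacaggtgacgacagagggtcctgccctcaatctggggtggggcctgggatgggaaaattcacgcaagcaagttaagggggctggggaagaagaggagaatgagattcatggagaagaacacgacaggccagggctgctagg

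A CCAAT box on either strand stood in 34 of 43 windows of member genes (79.1%), against 37.4% of all 32817 windows in the table. The interferon response element in the exact form marked above stood in 5 of the 43 (11.6%) against 3.43% of all. Those were windows of B2m, H2-T23, H2-T22, Psme1 and Erap1. Forms of the element with other letters were not searched, so a window without a match, such as that of H2-K1, may still hold one. GGGGATTCCCC, a sequence searched after the H2-K1 window had been read, stood in 10 windows of the whole table, 4 of them of H2-K1, H2-D1 and H2-Q6. The H2-Q2 window held a CCAAT box and neither of the other marked sequences. Windows of paralogues are similar by descent, a gene can have several, and 39 member genes had one. A match is a description of these letters and was not set against the expression values.

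The classical class I genes, which encode the heavy chains that present peptides to CD8 T cells, were modestly lower in large tumours. H2-D1 was at 12.54 in the small and 12.27 in the large pool of mouse 1, and at 12.36 and 11.86 in mouse 2. H2-K1 was at 10.23 and 9.70 in mouse 1 and at 10.02 and 9.82 in mouse 2. On these probes the large pools lay below the small pools in both genes. The mean difference was -0.39 for H2-D1 (SE 0.31; limma adjusted p = 0.750) and -0.37 for H2-K1 (SE 0.29; limma adjusted p = 0.750). A second tested probe of each gene had the same direction in both mice: that of H2-K1 differed by -0.87 and -0.64 with no overlap, and that of H2-D1 by -0.39 and -0.23 with overlap. B2m, the light chain shared by class I molecules, was at 13.66 and 13.12 in mouse 1 and at 13.25 and 12.96 in mouse 2, again with both large pools below both small ones. That separation depends on the scaling: the B2m difference in mouse 2 was 0.03 with median scaling and 0.0014 without normalization, where the sizes overlapped. Its second probe differed by -0.62 and -0.61.

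Among non-classical class I genes, 14 of 21 tested probes were lower in both mice and 1 was higher, against 28.6% and 29% of all tested probes. Genes of the Q region that encode Qa-2 molecules lay lower: H2-Q6 was at 7.38 in the small and 6.49 in the large pool of mouse 1, and at 7.47 and 6.08 in mouse 2. H2-Q8 was at 7.27 and 6.22 in mouse 1 and at 6.59 and 5.24 in mouse 2. The groups did not overlap in either gene, and the mean difference was -1.15 for H2-Q6 and -1.20 for H2-Q8 (limma adjusted p of 0.588 and 0.599). The H2-Q8 mean was -1.69 without the large pool of mouse 1 and -0.71 without that of mouse 2. The second probe of H2-Q8 lay -1.03 apart in mouse 1 and -0.03 in mouse 2, so its 2 probes differed in size in mouse 2. H2-Q7 was lower by less, at 9.20 and 8.62 in mouse 1 and at 8.81 and 8.56 in mouse 2.

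The T region gene H2-T18 was at 7.96 in the small and 6.98 in the large pool of mouse 1, and at 8.12 and 7.35 in mouse 2, a mean difference of -0.88 with no overlap of the sizes. H2-T23, which encodes Qa-1, a ligand of the natural killer cell receptor NKG2A, differed by -0.40 and -0.09. Its 3 probes did not all run the same way: one differed by -0.36 in mouse 1 and 0.53 in mouse 2. H2-M2 differed by -0.97 and -0.06, and H2-M3, which presents formylated bacterial peptides, by -0.26 and 0.39. H2-M9, H2-M11 and H2-Q1 were near background: H2-M9 differed by 0.05 and -0.41 (a bound), H2-M11 by -0.04 and 0.43 (a bound), and H2-Q1 by -0.14 (a bound) and -0.17. H2-M10.3, the member higher in both mice, was detected in the large pools and in neither small pool, with bounds of 0.09 and 0.06. RefSeq annotates H2-Bl, H2-Q5 and H2-T10 as transcribed pseudogenes. H2-Bl differed by -0.34 and -1.41 and H2-Q5 by -0.05 and 0.41. The brightest of the 3 H2-T10 probes differed by -0.12 and 0.36, and the other two were lower in both mice.

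The genes that carry peptides to class I molecules and load them lay lower in both mice, 6 of 6 tested probes, against 28.6% of all. Of the 6, a dim Tapbpl probe was detected in the small pools only, so it entered the test through them and its direction is no support. That probe also counts among the 41 members lower in both mice and the 25 with both large pools below both small pools. Tap2, a subunit of the peptide transporter, was at 8.80 in the small and 7.60 in the large pool of mouse 1, and at 9.11 and 7.44 in mouse 2. Both large pools were more than 1 log2 unit below the small pool of the same mouse, which held for 3 of the 57 member probes (H2-Q2, H2-Q8 and Tap2) and for 0.816% of all tested probes. Its mean difference was -1.44 (SE 0.30), and small tumours were 2.71-fold higher (limma adjusted p = 0.569, and 0.0852 when each mouse was a block). Tap1, its partner, was at 6.60 and 5.77 in mouse 1 and at 6.00 and 5.70 in mouse 2, with no overlap of the sizes. Tap1 and Psmb9 are transcribed head to head, their windows share 275 bases, and the order along the chromosome is Psmb9, Tap1, Psmb8 and Tap2.

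Tapbp encodes tapasin, the bridge between the transporter and an empty class I molecule. Its brighter probe was at 7.53 in the small and 7.35 in the large pool of mouse 1, and at 8.64 and 6.44 in mouse 2. The difference of -2.19 in mouse 2 was thus far larger than the -0.18 in mouse 1, and without the small pool of mouse 2 the mean difference went from -1.19 to -0.63. A second Tapbp probe gave -0.62 and -0.21, the opposite order of the mice. Tapbpl, which encodes the tapasin-like editor TAPBPR, differed by -0.06 and -0.19 on its brightest probe. A dimmer Tapbpl probe was detected in both small pools and in neither large pool, with bounds of -0.54 and -0.88. Erap1, which trims peptides in the endoplasmic reticulum, was not well above background on any array.

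Psmb8, the chymotrypsin-like subunit of the immunoproteasome, was at 10.76 in the small and 9.75 in the large pool of mouse 1, and at 9.88 and 9.21 in mouse 2. The large pools lay below the small ones on both of its probes. Psmb9 was at 9.65 and 8.75 in mouse 1 and at 8.65 and 8.91 in mouse 2, lower in one animal and higher in the other. Psmb10 differed by -0.58 and -0.05, and its second probe by -0.59 and 0.06. Psme1 and Psme2, the subunits of the PA28 activator that opens the proteasome, differed by -0.05 and 0.78 and by -0.29 and 0.66. Of the 8 probes of these genes 3 were lower in both mice, 5 went opposite ways, and none passed limma. Over all tested probes 28.6% were lower in both mice, and 8549 of 20214 went opposite ways.

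Genes of the constitutive proteasome lay higher in the large than in the small pool of mouse 2. Their median of mouse 2 minus mouse 1 was -0.37 between the small pools and 0.05 between the large pools. Of 13 tested genes of the standard core and its other activators, 6 were higher and 1 was lower in both mice, beside 30.7% and 26.7% of all genes, with medians of 0.02 in mouse 1 and 0.47 in mouse 2. Psmb5, Psmb3, Psmb1 and Psmb2 had the largest differences of that list, with means of 0.62, 0.58, 0.55 and 0.40. Each inducible subunit takes the place of 1 standard subunit, and setting the pairs side by side was decided after the values were seen. The difference of Psmb8 minus that of Psmb5 was -1.11 in mouse 1 and -1.80 in mouse 2. For Psmb9 minus Psmb6 it was -0.91 and -0.52, and for Psmb10 minus Psmb7 it was -0.70 and -0.48. On their brightest probes all 3 inducible subunits were therefore lower relative to their counterparts in both mice. By themselves, Psmb9 and the second Psmb10 probe were lower in mouse 1 only. No such gap was seen for the activator Psme1 beside Psme3: they differed alike in mouse 1, and in mouse 2 Psme1 lay 1.47 above.

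**Figure D2:**
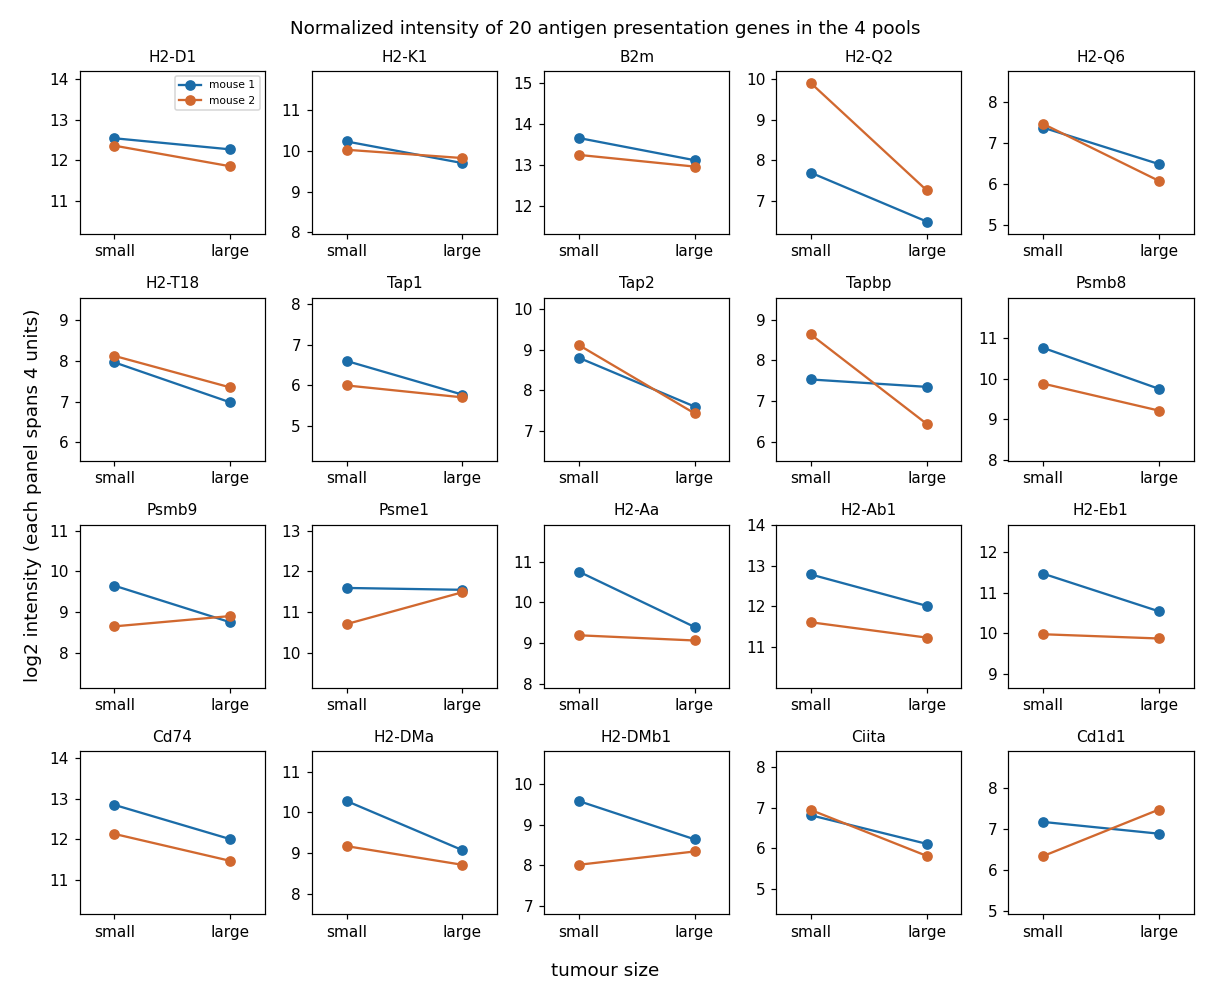
Normalized log2 intensity (vertical axis; each panel spans 4 units around its own centre) of 20 genes in the small and large pools of mouse 1 (blue) and mouse 2 (orange), 1 array per point. Lines for Tap2, Ciita, H2-Q6, H2-T18 and Psmb8 go down in both mice; H2-Aa and H2-Eb1 start high in the small pool of mouse 1 alone.

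Class II genes were lower in large tumours mainly in mouse 1. H2-Ab1, the beta chain of the I-A molecule, was at 12.78 in the small and 12.01 in the large pool of mouse 1, and at 11.61 and 11.23 in mouse 2. Its partner H2-Aa was at 10.76 and 9.40 in mouse 1 and at 9.19 and 9.07 in mouse 2. For both genes the small pool of mouse 1 was highest by far, and the large pool of mouse 1 was above the small pool of mouse 2, so the sizes overlapped. H2-Eb1 was at 11.47 and 10.54 in mouse 1 and at 9.98 and 9.87 in mouse 2, with the same order of the pools. The mean difference was -0.57 for H2-Ab1, -0.74 for H2-Aa and -0.51 for H2-Eb1 (limma adjusted p of 0.760, 0.721 and 0.806). Without the small pool of mouse 1 these means were 0.01, 0.04 and 0.23. One of the 3 H2-Ab1 probes did separate the sizes, with differences of -1.09 and -0.91. H2-Ea was not well above background on any array. C57BL/6 mice are known to lack an expressed H2-Ea chain, and RefSeq lists the gene as a transcribed pseudogene.

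Class II loading genes were also lowest, as a rule, in mouse 2 and highest in the small pool of mouse 1. Cd74, the invariant chain that guides class II molecules to endosomes, was at 12.84 in the small and 12.00 in the large pool of mouse 1, and at 12.13 and 11.47 in mouse 2. It was lower in both mice on all 3 of its probes, and on 2 of them the sizes did not overlap. H2-DMa, a chain of the DM editor that exchanges class II peptides, was at 10.28 and 9.07 in mouse 1 and at 9.17 and 8.72 in mouse 2. H2-DMb1 differed by -0.94 and 0.33, and H2-DMb2 by -1.18 and -0.06. A dim second H2-DMb2 probe had bounds of -0.12 and 0.06. H2-Ob, a chain of the DO regulator of B cells, and one of 2 H2-Oa probes were not well above background on any array.

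Ciita, the master switch of class II transcription, was at 6.81 in the small and 6.11 in the large pool of mouse 1, and at 6.94 and 5.82 in mouse 2. The sizes did not overlap, and the small pools of the mice were within 0.13 of each other. Its mean difference was -0.91 (SE 0.29; limma adjusted p = 0.588, and 0.309 when each mouse was a block), with small tumours 1.88-fold higher. Between those same pools, mouse 2 minus mouse 1 was -1.56 for H2-Aa and -1.49 for H2-Eb1. Rfx5, which binds the X box of these promoters, was not well above background on any array. Cd1d1, which presents lipids to natural killer T cells, differed by -0.29 and 1.14. H2-Ke6 lies in the MHC but encodes a hydroxysteroid dehydrogenase, and it differed by -0.07 and 0.82.

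Set beside each other, class I probes (27 tested) had a median difference of -0.39 in mouse 1 and -0.23 in mouse 2, and class II probes (13 tested, chains and loading genes) of -1.07 and -0.37. Of class I probes 20 were lower in both mice, and in 14 both large pools lay below both small pools. The class II counts were 11 and 4. Of all tested probes, 28.6% were lower in both mice and 19.3% had both large pools below both small pools. Over both mice the class II median of -0.74 lay 0.35 below the class I median of -0.39, and that gap was not tested. The gap turned on the small pool of mouse 1: without it class I minus class II was -0.25, and the class II median was -0.01. Without the small pool of mouse 2 the class II median was -1.26, and class II lay 0.79 below class I. Each of those values compares pools of both mice with a pool of 1 mouse.

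**Figure D3:**
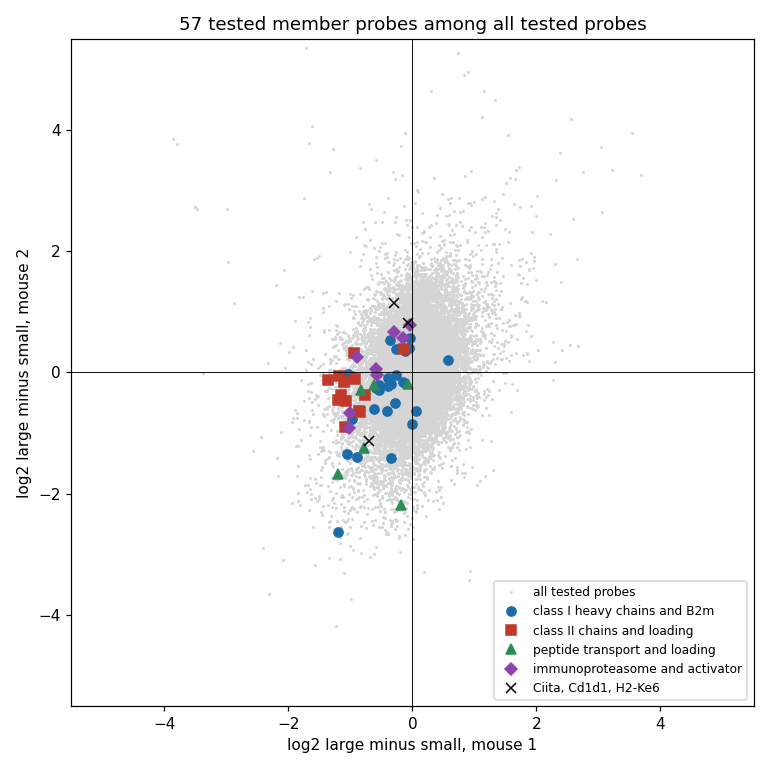
Log2 large minus small in mouse 1 (horizontal axis) against mouse 2 (vertical axis) for all 20214 tested probes (grey) and the 57 tested member probes, coloured by role. Class II probes (red squares) sit around their medians of -1.07 in mouse 1 and -0.37 in mouse 2. Pearson's r was 0.409 across the 57 members and 0.301 across all tested probes, as a description over probes that share arrays.

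The mice differed more between small than between large pools for class II probes. For class II probes the median of mouse 2 minus mouse 1 was -1.19 between the small pools and -0.53 between the large pools. For class I probes the same medians were -0.20 and -0.07. Between the small pools the median was 0.38 for peptide transport and loading probes and -0.85 for immunoproteasome probes. The small pool of mouse 2 also had the lowest correlations with the other arrays over all tested probes (Pearson's r of 0.936 to 0.949, against 0.961 to 0.977 among the others; probes are not independent replicates).

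Several markers of macrophages and other leukocytes were lower in the small pool of mouse 2 than in that of mouse 1. Of 16 macrophage and dendritic cell genes on the array 9 were tested, with a median difference of -0.35 in mouse 1 and 0.41 in mouse 2. Of the 9, 3 were lower and 0 higher in both mice, against 26.7% and 30.7% of all genes. The sum of the normalized intensities of the 9 was 5307 in the small and 4018 in the large pool of mouse 1, and 1721 and 2317 in mouse 2. Between the small pools their median of mouse 2 minus mouse 1 was -1.57. Csf1r, which encodes the receptor of macrophage colony-stimulating factor, differed by -0.61 and -0.68, Cd68 by -0.29 and 1.34 and C1qb by -0.35 and 0.96. Clec9a was detected in neither large pool, with bounds of -0.29 and -0.0062; with it at its bound the list's median in mouse 1 was -0.30. The dendritic cell genes Itgax, Flt3, Zbtb46, Xcr1, Ccr7 and Cd209a, and Itgam, had no tested probe. Of the 5 pan-leukocyte genes, Laptm5 (-0.49 and -0.64) and Ptprc (bounds of -0.28 and -0.33, detected in neither large pool) were lower in each mouse. Coro1a (-0.70 and 0.13), Cd53 (-0.76 and 0.23) and Cd52 (-0.96 and 1.27, named after its values were seen) were not. Between the small pools the median of mouse 2 minus mouse 1 was -0.83 for these genes, while Ptprc was at 5.06 in mouse 1 and 5.22 in mouse 2. The median of the 5 was -0.70 in mouse 1 and 0.13 in mouse 2, and their sums were 5206 and 3369 in mouse 1 and 3227 and 2779 in mouse 2.

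Of 9 T cell genes 7 were tested, and 3 of the 7 were lower in both mice, against 26.7% of all genes. One of those 3, Cd2, was detected in neither pool of mouse 2. The median of the 7 was -0.92 in mouse 1 and -0.15 in mouse 2. Without Cd2 it was -0.27 in mouse 2. The sums of the 7 were 2858 and 3226 in mouse 1 and 3501 and 2400 in mouse 2. Cd3e differed by -1.18 and -1.34 and Cd3g by -1.27 and -0.57; both encode CD3 chains. Cd3d, a further CD3 chain gene, and the kinase gene Lck went opposite ways, by -1.33 and 0.22 and by -0.92 and 0.26. Cd8b1, the brightest of the 7 and named after its values were seen, differed by 0.46 and -0.59. Of 7 B cell genes, Cd79b alone was tested (-0.86 and 0.14), and Ms4a1 and Pax5 were among those without a tested probe. All 9 epithelial markers, which mark the labelled tissue, were tested, with a median of -0.20 in mouse 1, -0.28 in mouse 2 and sums of 53600 and 47147 in mouse 1 and 62942 and 50013 in mouse 2; 7 were lower and 2 higher in both mice. Villin (Vil1) and keratin 20 (Krt20), of mature enterocytes, had means of -0.69 and -0.52, and Krt18 had 0.34. Epcam was detected in neither small pool, with bounds of 0.046 and 0.43. The part of these cell types in the MHC values was not tested.

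Interferon gamma is a strong inducer of MHC genes; its own gene Ifng had no tested probe. Of 11 tested genes of its signalling, 6 were lower in both mice, against 26.7% of all genes with 1 probe each, and Ifngr2 and Ptpn2 were higher, against 30.7%; the median was -0.03 in mouse 1 and -0.67 in mouse 2. The kinase gene Jak2 differed by -0.11 and -1.24 and Irf1, which binds the response element marked above in the B2m window, by -0.03 and -1.06, whereas the receptor gene Ifngr2 was higher (0.74 and 0.52). Of 16 tested interferon-induced genes, 11 were lower in both mice, and Ifit3 and Irgm1 were higher, beside those same shares of all genes; the median was -0.85 in mouse 1 and -0.69 in mouse 2. Cxcl9, a chemokine gene that attracts activated T cells, was at 9.80 and 8.12 in mouse 1 and at 8.91 and 7.06 in mouse 2, so both large pools lay below both small ones. Cxcl9 fell by 1.77 on the log2 scale with each mouse as a block (limma adjusted p = 0.0366), and its limma adjusted p was 0.588 without it. Cxcl10, its relative, differed by -1.40 and -1.50, and the GTPase gene Gbp2 by -1.04 and -1.60. The GTPase gene Igtp had -1.02 and -1.89. No other gene of these 2 lists passed limma with or without the block.

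**Figure D4:**
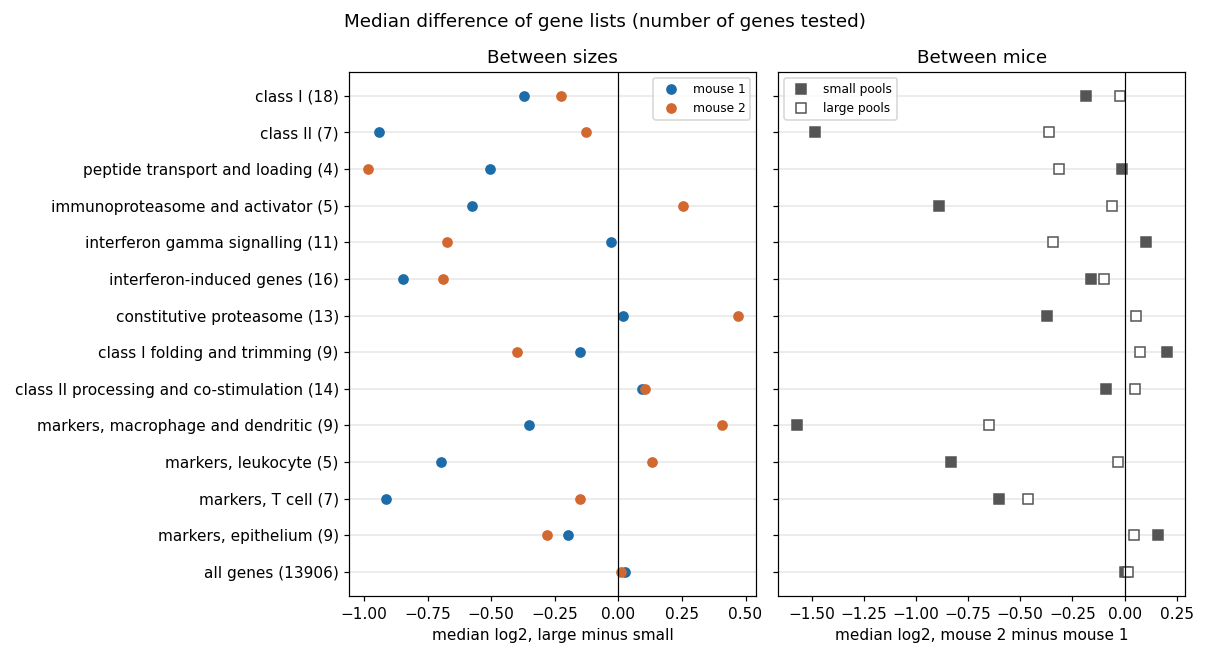
Median log2 difference of each gene list, with 1 probe per gene and the number of genes tested in parentheses: large minus small in mouse 1 (blue) and mouse 2 (orange) on the left, and mouse 2 minus mouse 1 in small (filled) and large (open) pools on the right. The class II, macrophage and leukocyte lists lie far left for the small pools on the right panel, while interferon-induced genes lie left of 0 in both mice on the left panel.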

How the data were processed

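Each of the 4 pools was read on 1 bead array. The authors exported linear intensity values without normalizing them or subtracting background, per the file headers (gene expression module 3.2.6); the submitters' processing notes name BeadStudio. Beside each intensity, the deposited table gives a detection p-value, a standard error and a bead count. The authors' deposited matrix of normalized intensity values, made by steps that no source used here describes, served as an alternative. The files give no slide.

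The intensities were passed through neqc (limma 3.58.1, R 4.3.3; offset 16, background from detection p-values, quantile normalization, log2). A probe that 2 or more arrays detected (detection p under 0.05) was tested by lmFit and eBayes, two-sided, at a Benjamini-Hochberg adjusted p under 0.05 over all 20214. The precision is limited by 2 arrays per size and 2 animals; the smallest p of an exact permutation test would be 0.333. The main fit has no block. Because the labels pair the pools of each mouse, a fit with mouse as block was an alternative; it has 1 residual degree of freedom and leans on the spread pooled over probes. The mouse difference in small and in large pools correlated over probes (r = 0.216). Other alternatives changed the background correction, scaling, filter and offset, used 1 probe per gene or left out an array. A difference against an undetected array is a bound, with that array's lowest detected value in its place; counts and medians of lists use the normalized values. The fit was also run on simulated data with planted differences of 2 log2 units and the same mouse effect in both sizes. That run does not cover smaller differences or a mouse effect that varies with size.

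Every member gene with a tested probe is named, by its brightest tested probe on average, and pathway and marker lists are described by their 4 largest differences, except for an item not reported here. Members, lists and rule were chosen with earlier results of these data known. Symbols are those of the file. Standard errors over beads had array medians of 4.14% to 5.24% of the signal for members.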

Additional observations from a re-analysis of the deposited data

Results flagged for a closer look

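Of the 38 member probes left out of the test, 32 were detected on no array and 6 on 1 array, where the signal exceeded the background; no comparison of the report uses these 6, which enter the alternative with no filter alone. They are another H2-D1 probe (signal 68.7, large pool of mouse 2), an H2-M10.1 probe (70.6, large pool of mouse 2), an H2-Q5 probe (68.7, small pool of mouse 2), an H2-Eb2 probe (65.1, small pool of mouse 1), an H2-Oa probe (85.6, small pool of mouse 1) and a Tapbpl probe (70.1, small pool of mouse 2). A detection limit of 0.05 lets some probes through by chance. H2-Oa and H2-Eb2 are class II genes, and the pool that detected them was the one in which the tested class II probes were highest.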

How the results depend on the processing

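The labels pair the pools of a mouse. A block for the mouse let 120 probes pass limma, 1 of them a member (H2-Q2), against 0 and 0 without it; median scaling gave 2 and leaving out 1 array 0 to 70. The block changed no other member's call. Of 436 comparisons of a member gene with an alternative, 418 kept direction and call, 1 gained the call (H2-Q2 with the block) and 17 reversed. The class I median (-0.39) was -0.10 with no filter and -0.47 to -0.27 with 1 array left out, the class II median (-0.74) -1.26 to -0.013, and the immunoproteasome median (-0.29) -0.68 to 0.14. Class I minus class II (0.35) was -0.25 to 0.79 with 1 array left out, and 34 to 53 members were lower instead of 45. Members with both large pools below both small ones (25 of 57, against 19.3% of all probes) were 29 of 57 with median scaling (20.6% of all) and 27 of 57 without normalization (19.4%). They were 23 of 49 for probes detected on all 4 arrays (19.2%), 23 of 49 in the authors' matrix (19.3%) and 34 of 95 with no filter (17.8%). That count was also added after seeing the data. The transport and loading median (-0.79) was -0.87 with 1 probe per gene, -0.36 in the authors' matrix, -0.56 for probes detected on all 4 arrays, -0.49 without normalization, -0.85 with median scaling, -0.45 without background correction, -0.42 with no filter, -0.44 with offset 50 and -0.99 to -0.72 with 1 array left out. H2-M3 was -0.013 without normalization. Leaving out 1 array moved across 0 the values of H2-Aa (-1.53 to 0.038), H2-Ab1 (-1.16 to 0.014), H2-DMb1 (-1.09 to 0.48), H2-DMb2 (-1.36 to 0.13), H2-Eb1 (-1.26 to 0.23), H2-Ke6 (-0.030 to 0.78), H2-M3 (-0.46 to 0.59), H2-Q5 (-0.12 to 0.48), H2-T10 (-0.15 to 0.39), Psmb10 (-0.73 to 0.10), Psmb9 (-0.82 to 0.18), Psme1 (-0.075 to 0.81), Psme2 (-0.29 to 0.66) and Tapbpl (-0.36 to 0.10). The count with 1 array left out was chosen after the small pool of mouse 2 was seen to stand apart. The causes were not tested. Such a fit leaves 1 size with 1 array, assumed to vary like the other pair, and sets pools of both mice against 1 mouse. Dim probes, among them H2-M10.3, H2-M9, H2-M11 and H2-Q1, are limited by signal over background.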

Other observations

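Of 14 tested genes of class II processing and co-stimulation, 1 was lower in both mice, 2 were higher and 11 went opposite ways, against 26.7%, 30.7% and 42.5% of all genes; the medians were 0.09 and 0.11. The protease gene Ctsl (bounds of 0.32 and 0.48, detected in neither small pool) and Rfxap, a subunit of the X box factor (0.22 and 1.08), were the higher ones, and Cd86, a co-stimulatory ligand (-0.87 and -0.29), the lower one. Ctsd, of a lysosomal protease, differed by -0.16 in mouse 1 and by a bound of 0.60 in mouse 2, where the small pool did not detect it.

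Of 9 tested genes of class I folding and trimming, 3 were lower in both mice and 0 higher, against 26.7% and 30.7% of all genes, and the median was -0.15 in mouse 1 and -0.40 in mouse 2 (-0.013 in mouse 1 with an undetected gene, Mr1, at its bound). Pdia3, the disulphide isomerase of the loading complex, differed by -0.26 and -0.88, the peptidase gene Thop1 by -0.15 and -0.88, the Fc receptor gene Fcgrt by -0.45 and -0.35, and the chaperone gene Calr by 0.00 and -0.68. None of these genes passed limma with or without the mouse as a block.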
